A study of Mus musculus with 6 samples.

Results

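The genes described here are 46 genes of NF-kB, Toll-like receptor and inflammasome signalling, chosen by symbol, of 54532 genes in the count table. All 46 symbols were found, and 40 of the genes had enough counts to be tested. Messenger RNA was sequenced from 32D, an interleukin-3-dependent myeloid line from the mouse that the labels describe as myeloblast-like, grown here in medium with serum and mouse interleukin-3. Both groups carried a retroviral vector with GFP (MSCV-IRES-GFP) and a human U2AF1 sequence. U2AF1 is a splicing factor that recognises the 3' end of introns. In one group the sequence was wild type (WT), and in the other it carried S34F, a recurrent substitution of myelodysplastic syndromes and leukaemia. Each group had 3 libraries. The protocols name no change to the cells' own U2af1, no stimulus of the pathway was named in the labels, and the labels do not say whether the libraries came from separate cultures. Where they did not, the p-values measure technical spread.

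NF-kB is a family of dimeric transcription factors that IkB proteins hold in the cytoplasm. Toll-like receptors and the receptors of interleukin-1 and TNF signal through adaptors and ubiquitin ligases to the IKK kinase complex, which marks IkB for destruction and frees NF-kB. NF-kB then induces cytokine genes and also genes of its own inhibitors, among them Nfkbia and Tnfaip3, so that the response limits itself. Myeloid cells use the pathway to sense microbes, and the inflammasome, built from a sensor such as NLRP3 and the adaptor ASC, activates caspase-1 to mature interleukin-1 beta.

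Library totals ran from 16509899 to 19129250 counts. Levels are given in CPM, counts scaled to a common library size with TMM factors. A count of 0 allows up to 3 counts, which was 0.156 to 0.182 CPM. WT replicates 2 and 3 stood unusually near each other, with a biological coefficient of variation of 3.16%, while the remaining within-genotype pairs had 16.5% to 21.5%. A chi-square of 2.30 per degree of freedom put their difference above sampling noise, which does not show that they were separate cultures. They were kept apart in the main fit and summed in an alternative. Of 12 markers of the myeloblast stage, Cebpa had no count, and Kit, Cd34 and Elane stayed at or below 0.487 CPM in every library, while Csf2rb, a signalling chain of the interleukin-3 receptor, lay between 570 and 831 CPM. Of the 8 tested, edgeR called 1 higher in S34F, the myeloid transcription factor gene Spi1 (adjusted p = 0.0491), beside 2.18% of all genes. No marker of this list was called with upper-quartile factors, library totals alone, the GC trend removed or WT replicates 2 and 3 summed. None was called without any 1 library other than WT replicate 1. Of the 8, DESeq2 called 3 higher, where 8.64% of all genes were called. With the replicate number as a block 3 were called higher (10.5% of all genes), and without WT replicate 1 2 were (8.51%).

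The 250 bases before the RefSeq start (build GRCm38.p6) were searched on both strands for the kappaB consensus, the sequence that NF-kB dimers bind. Of the 46 genes 37 had such a window, and 12 of these 37 (32.4%) held at least 1 match in any of their windows, against 8.23% of 27025 genes in the same table. Matches were in windows of Nfkb2, Rel, Nfkbia, Nfkbie, Tnfaip2, Tnfaip3, Tnip1, Irak1, Traf3, Map3k7, Tlr2 and Nlrp3. Many members are known NF-kB targets and were listed for that, so the share is a description, and a match is not shown to be bound. The Nfkbia and Tnip1 windows are shown as feedback inhibitors with matches, at chr12:55492648-55492897 and chr11:54962941-54963190. For Tnfaip3, at chr10:19015411-19015547, and Tlr2, at chr3:83841768-83841858, only the stretch outside annotated exons is shown. The Tnf window, at chr17:35202008-35202257, is the cytokine gene with the largest fitted difference and held no match, which says only that these letters are not in this window. All 5 are on the minus strand and are written 5' to 3' toward the start, with bases that match the consensus in capitals. The matches in Tnip1, and those in Tlr2, overlap one another.
Nfkbia: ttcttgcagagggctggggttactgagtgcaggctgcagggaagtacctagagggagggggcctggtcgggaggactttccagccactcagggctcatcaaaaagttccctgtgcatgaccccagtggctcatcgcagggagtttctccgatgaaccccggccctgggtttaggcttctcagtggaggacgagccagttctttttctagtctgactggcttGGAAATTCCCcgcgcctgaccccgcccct
Tnfaip3: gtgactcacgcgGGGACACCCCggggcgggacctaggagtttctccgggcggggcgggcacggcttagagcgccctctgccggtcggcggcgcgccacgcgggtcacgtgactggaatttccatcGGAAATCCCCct
Tnip1: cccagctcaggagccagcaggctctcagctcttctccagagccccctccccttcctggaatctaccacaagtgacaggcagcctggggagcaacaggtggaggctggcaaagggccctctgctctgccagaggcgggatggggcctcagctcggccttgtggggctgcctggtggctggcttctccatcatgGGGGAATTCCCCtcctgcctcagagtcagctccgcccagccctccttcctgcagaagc
Tlr2: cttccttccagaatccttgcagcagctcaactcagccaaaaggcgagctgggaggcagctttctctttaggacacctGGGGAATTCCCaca
Tnf: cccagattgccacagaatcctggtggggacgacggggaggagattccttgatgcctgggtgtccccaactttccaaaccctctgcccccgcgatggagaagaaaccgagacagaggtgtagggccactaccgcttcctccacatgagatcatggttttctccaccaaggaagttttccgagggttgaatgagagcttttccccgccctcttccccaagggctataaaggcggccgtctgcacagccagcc

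The members covered a wide range of levels. Scaled to exon length, which allows genes to be compared, Nfkbia, encoding the inhibitor IkB-alpha, was the highest member at a mean of 81.9 CPM per kilobase of exon over the 6 libraries. The NF-kB subunit genes followed an order of Rela (47.9 CPM per kilobase), Nfkb2 (34.2), Nfkb1 (22.3), Rel (14.7) and Relb (10.8). The cells thus had message for all 5 subunits, and also for all 3 IKK genes, led by Chuk at 27.5 CPM per kilobase. Among the Toll-like receptor genes Tlr4, the receptor of bacterial lipopolysaccharide, lay at 22.2 CPM per kilobase and Tlr2, the receptor of bacterial lipopeptides, at 11.3. Tlr6, a partner of Tlr2, lay at 0.480 CPM per kilobase and Tlr9, a receptor of DNA, at 0.350.

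The 6 members that were too low to test were Bcl3, Tlr1, Tlr7, Pycard, Il18 and Cd40. Pycard, which encodes the inflammasome adaptor ASC, had 56 counts in all 6 libraries together, 32 of them in S34F. Tlr1 had 3 counts in S34F and 19 in WT, and Tlr7 had 5 in each group. Bcl3, Cd40 and Il18 had 4, 5 and 2 counts in all. The messages of the sensor Nlrp3 and of its adaptor were both counted in every library. Nlrp3 lay at 4.01 CPM or more, and Pycard between 0.365 and 0.734 CPM.

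**Figure D1:**
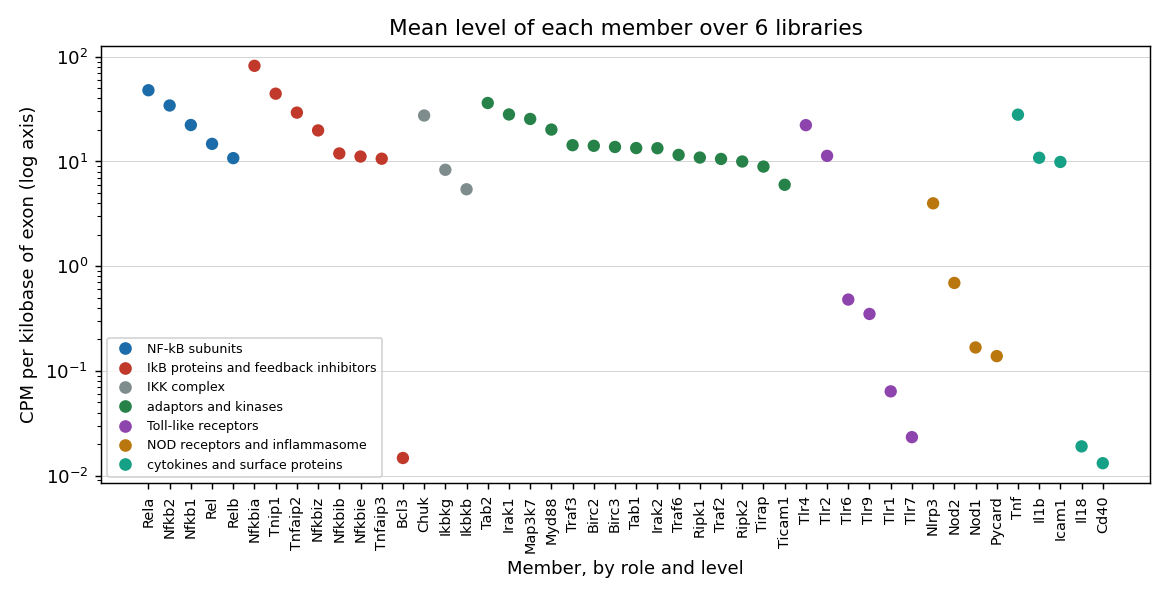
Mean level of each of the 46 members over 6 libraries, in CPM per kilobase of exon on a log axis, ordered and coloured by role. Nfkbia is the highest at 81.9, and the 6 untested members, with Pycard the highest of them, lie at the bottom.

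No single member passed the test between the genotypes. By the quasi-likelihood test of edgeR 0 of 40 tested members rose or fell in S34F cells at an adjusted p under 0.05, while 2.18% of all 13444 genes tested did (1.58% higher and 0.595% lower). DESeq2 called 0 of 39 (8.64% of all genes) and limma-voom 0 of 40 (2.02%). Each gave 5 members at an unadjusted p under 0.05, a level at which the share of all genes was not computed for them. At an unadjusted p under 0.05 edgeR gave 4 members, all with lower values in S34F, which is 10% of the members against 22% of all genes (11.9% higher and 10.1% lower). The 3 S34F libraries lay on one side of the 3 WT libraries for 6 members, or 15%, against 27.1% of all genes (14% higher and 13.1% lower), and in all 6 the S34F values were the lower ones. The median log2 fold change over the tested members was 0.04, beside 0.00052 over all genes, with 22 positive and 18 negative, and 50.1% of all genes were positive. The smallest adjusted p was 0.129. A p that misses the threshold does not show equal levels. The median SE of the members' log2 fold changes was 0.18, as over all genes.

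**Figure D2:**
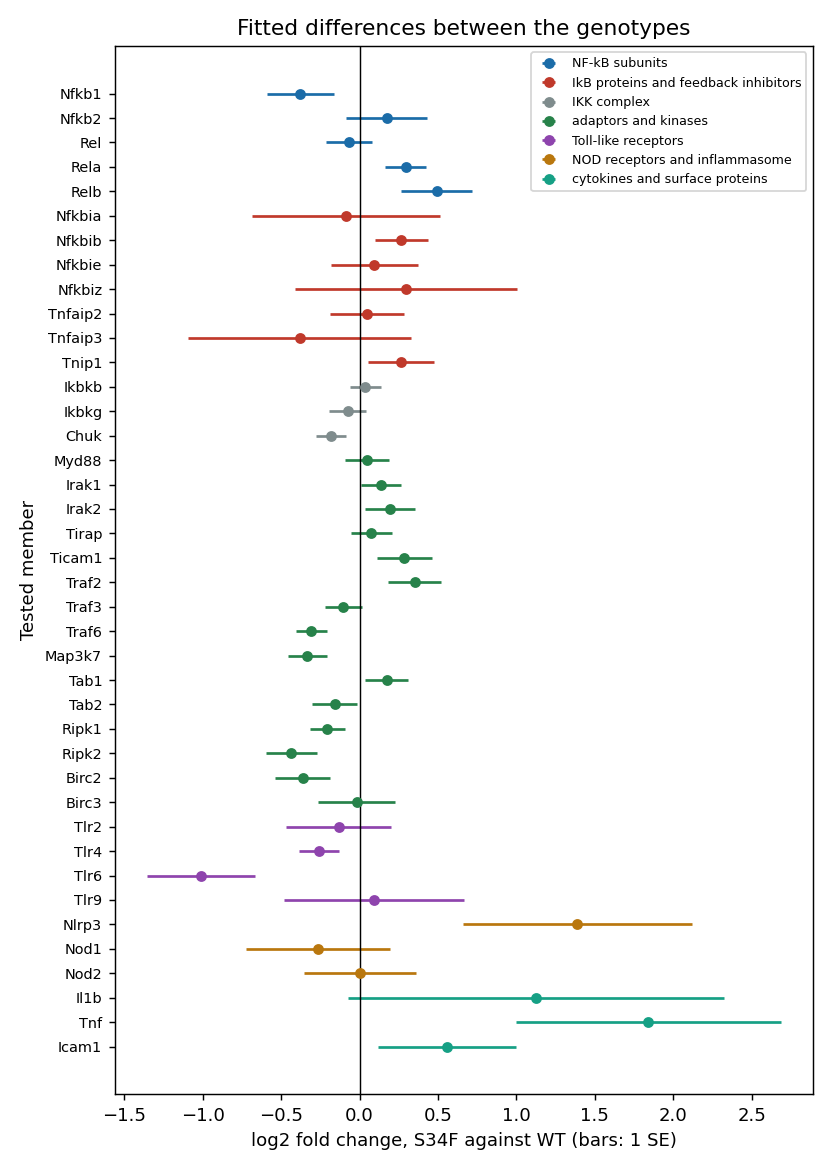
Fitted log2 fold change of each of the 40 tested members, S34F against WT, with bars of 1 SE and colours by role. Most members lie close to 0 with short bars, while Tnf, Il1b, Nlrp3, Nfkbiz, Tnfaip3 and Nfkbia have bars of 0.60 to 1.2.

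Many members differed between libraries of the same genotype. In S34F replicate 2, 28 of the 40 tested members (70%) had their highest S34F value, against 37.3% of all genes tested. In WT replicate 1, 24 of the 40 (60%) had their highest WT value, against 42% of all genes. Both held together for 19 members (47.5%), against 10.2% of all genes. These 19 were all 5 NF-kB subunit genes, 5 of the 7 tested IkB proteins and feedback inhibitors, all 3 tested cytokine and surface protein genes, and 6 genes of other roles. The 2 libraries were singled out after their values were seen, so these shares describe the libraries and carry no test. They use rank alone and include small steps. Rel, for example, had 119, 110 and 109 CPM in WT replicates 1 to 3. WT replicate 1 also held the lowest WT value for 45.6% of all genes and 35% of the members. The highest S34F value was at least 2 times the lowest in 13 of the 40 members (32.5%; 14.7% of all genes), and the highest WT value at least 2 times the lowest in 7 (17.5%; 11.5% of all genes).

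**Figure D3:**
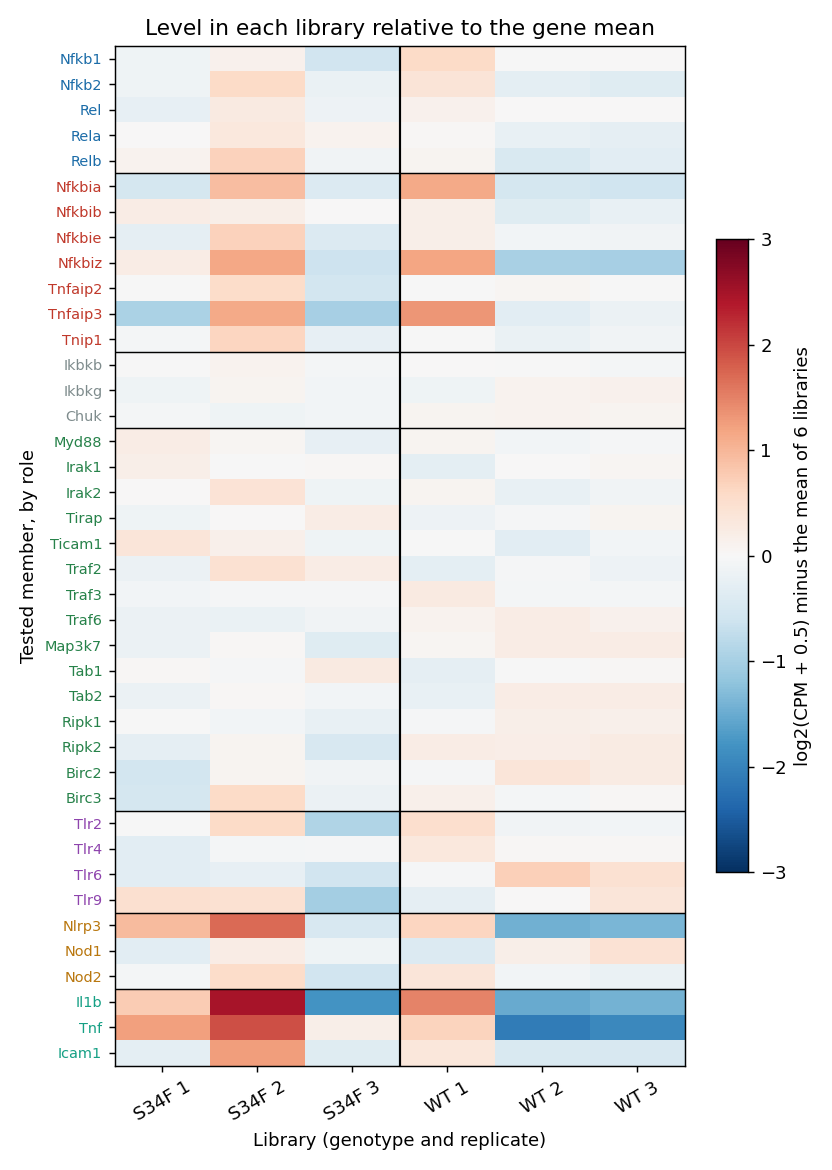
Level of each tested member in each library as log2(CPM + 0.5) minus its mean over the 6 libraries, with rows by role and the genotypes parted by a vertical line. S34F 2 and WT 1 are the warmest columns for Nfkbia, Nfkbiz, Tnfaip3 and Il1b. For Tnf and Nlrp3 S34F 2 is the warmest, and S34F 1 is warmer than WT 1. The IKK rows and most adaptor rows stay pale.

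**Figure D4:**
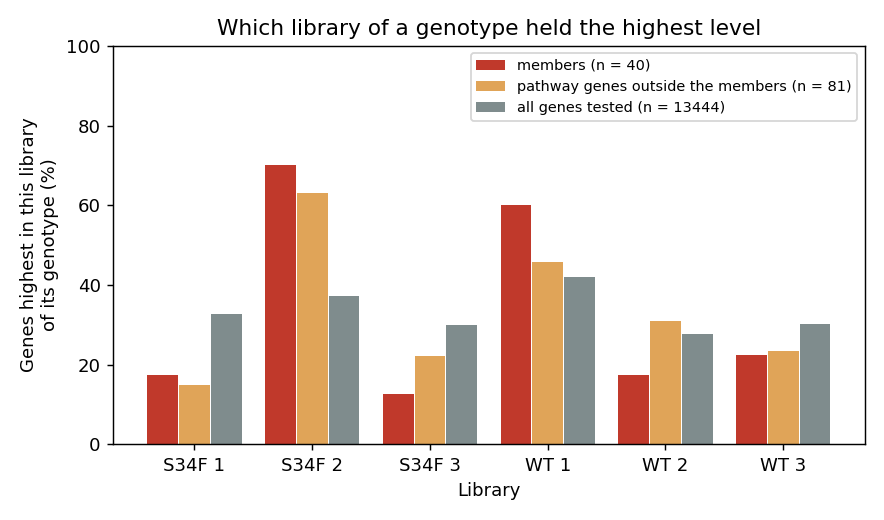
Share of genes, in percent, whose highest value within a genotype was in the named library, for the 40 tested members, the 81 tested pathway genes outside them and all 13444 genes tested. The members' bars reach 70% in S34F 2 and 60% in WT 1.

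Among the NF-kB subunits, Rela, the activating subunit p65, gave 146, 183 and 157 CPM in the S34F libraries, in replicate order, against 149, 126 and 121 CPM in the WT libraries. S34F replicate 2 was the highest, and the groups overlapped because WT replicate 1 exceeded S34F replicate 1. For Rela the fitted log2 difference was 0.29 ± 0.13 (SE, n = 3 per group, edgeR adjusted p = 0.228), the smallest p among the subunits. Relb, a subunit of the slower noncanonical branch, had the largest positive value of the subunits, with 0.49 ± 0.23 (adjusted p = 0.245). Nfkb1, which encodes p105 and p50, had a negative one (-0.38 ± 0.21, adjusted p = 0.338). Nfkb2 and Rel had log2 fold changes of 0.17 and -0.07. Antisense reads could add to Nfkb2, since 6.52% of its exon bases lie opposite exons of Psd, which had a mean of 117 CPM beside 157 CPM for Nfkb2.

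Among the IkB proteins and feedback inhibitors, Nfkbia, Nfkbiz and Tnfaip3 had high libraries in both genotypes. Nfkbia (ENSMUSG00000021025, chromosome 12, 55489410 to 55492647, mm10) gave 79.4, 218 and 86.5 CPM in the S34F libraries, in replicate order, against 254, 78.9 and 75.1 CPM in the WT libraries. One library of each genotype stood high and the other 4 lay together. Its log2 fold change was -0.09 ± 0.60 (adjusted p = 0.951), and its value was 0.74 without WT replicate 1 and -0.71 without S34F replicate 2.

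Nfkbiz, which encodes the nuclear protein IkB-zeta that is needed for a secondary set of NF-kB targets, had 94.4, 181 and 52.7 CPM in S34F and 186, 41.1 and 40.7 CPM in WT. Tnfaip3, which encodes the ubiquitin-editing enzyme A20, had 32.2, 137 and 30.8 CPM in S34F and 156, 49.7 and 55.2 CPM in WT. In both genes S34F replicate 2 and WT replicate 1 were again the high libraries, and the groups overlapped. The log2 fold changes were 0.30 ± 0.71 for Nfkbiz and -0.38 ± 0.71 for Tnfaip3 (SE, adjusted p = 0.843 and 0.796). Nfkbib, encoding the inhibitor IkB-beta, had the smallest p of this group, with 30, 28.9 and 25.9 CPM in S34F and 29.1, 19.7 and 21.7 CPM in WT. Its log2 fold change was 0.27 ± 0.17 (adjusted p = 0.393). Tnip1, Tnfaip2 and Nfkbie had their highest S34F value in replicate 2 too, at 238, 208 and 53.5 CPM, with log2 fold changes of 0.26, 0.05 and 0.09. In WT no library stood out for them, and the highest was 1.14, 1.04 and 1.21 times the lowest.

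The genes of the IKK complex had similar levels in all libraries of a genotype. Chuk, the kinase IKK-alpha, gave 133, 127 and 132 CPM in S34F against 147, 151 and 148 CPM in WT. The S34F libraries all lay below the WT libraries, by a small step. For Chuk the fitted log2 difference was -0.18 ± 0.09 (SE, n = 3 per group, adjusted p = 0.297). Ikbkb, the kinase IKK-beta, and Ikbkg, the regulatory subunit NEMO, had log2 fold changes of 0.04 ± 0.10 and -0.08 ± 0.12. The highest library of each of the 3 genes was at most 1.2 times the lowest of the same genotype.

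The adaptors and kinases that link receptors to IKK held 3 of the 4 members with an unadjusted p under 0.05, each with the S34F libraries below the WT libraries. Traf6 (ENSMUSG00000027164, chromosome 2, 101678429 to 101701669, mm10), the ubiquitin ligase downstream of Toll-like and interleukin-1 receptors, had 80.2, 79.4 and 84.7 CPM in S34F and 97.3, 106 and 99.2 CPM in WT. Its log2 fold change was -0.31 ± 0.10 (unadjusted p = 0.0133, adjusted p = 0.129). Map3k7, the kinase TAK1 that TRAF6 activates, had 143, 165 and 126 CPM in S34F and 169, 188 and 190 CPM in WT. S34F replicate 2 came within a few CPM of WT replicate 1, and the log2 fold change was -0.33 ± 0.13 (unadjusted p = 0.0270, adjusted p = 0.172).

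Ripk2, the kinase downstream of NOD1 and NOD2, had 23.0, 29.2 and 19.6 CPM in S34F and 32.2, 31.9 and 33.0 CPM in WT. The WT libraries were nearly equal, the S34F libraries were spread, and the log2 fold change was -0.43 ± 0.16 (SE, unadjusted p = 0.0250, adjusted p = 0.166). Tab2, a TAK1-binding adaptor and the most abundant of this group per exon length, had 196, 227 and 207 CPM in S34F and 188, 257 and 257 CPM in WT. Here WT replicate 1 was the lowest of all 6 libraries, and the log2 fold change was -0.16 ± 0.14 (adjusted p = 0.562). With WT replicates 2 and 3 summed into 1 library, no tested member had an unadjusted p under 0.05, and Traf6, Map3k7 and Ripk2 had log2 fold changes of -0.29, -0.31 and -0.43.

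The ubiquitin ligase gene Birc2, encoding cIAP1, had 43.4, 66.9 and 59.2 CPM in S34F and 61.4, 81.5 and 75.2 CPM in WT. The groups overlapped, and the log2 fold change was -0.36 ± 0.18 (adjusted p = 0.268). The other 10 adaptor and kinase genes had log2 fold changes between -0.20 for Ripk1, a kinase of the TNF receptor complex, and 0.35 for Traf2, a ligase of the same complex, with adjusted p-values from 0.262 up. Myd88, the adaptor of most Toll-like receptors, lay between 43.6 and 60.6 CPM in all 6 libraries, with a log2 fold change of 0.05 ± 0.14. Its exons lie opposite those of Acaa1a over 11.3% of their bases, and Acaa1a had a mean of 30.3 CPM beside 51.9 CPM for Myd88.

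Of the Toll-like receptor genes, Tlr6 had the lowest log2 fold change of any tested member. It gave 1.24, 1.35 and 0.955 CPM in S34F against 1.64, 3.06 and 2.49 CPM in WT. All S34F libraries were below all WT libraries, at levels of few counts. The log2 fold change was -1.01 ± 0.34 (SE, n = 3 per group, unadjusted p = 0.0169, adjusted p = 0.143). Tlr4 had 99.0, 118 and 120 CPM in S34F and 153, 125 and 126 CPM in WT. The groups were apart by a few CPM, and the log2 fold change was -0.26 ± 0.13 (adjusted p = 0.279).

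Tlr2 had 32.2, 48.0 and 17.2 CPM in S34F and 46.4, 30.2 and 30.5 CPM in WT. It followed Nfkbia, Nfkbiz and Tnfaip3, with S34F replicate 2 and WT replicate 1 the high libraries. The log2 fold change of Tlr2 was -0.13 ± 0.33 (adjusted p = 0.849). Tlr9 had a log2 fold change of 0.09 ± 0.57 at a mean of 1.22 CPM.

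The inflammasome sensor gene Nlrp3 had 23.1, 38.8 and 8.18 CPM in S34F and 18.7, 4.01 and 4.22 CPM in WT. WT replicate 1 lay above S34F replicate 3, so the groups overlapped although WT replicates 2 and 3 were below every S34F library. Its fitted log2 difference was 1.39 ± 0.73 (adjusted p = 0.310). It was 2.51 without WT replicate 1 (adjusted p = 0.0516) and 0.81 without S34F replicate 2 (adjusted p = 0.521). The peptidoglycan sensor genes Nod1 and Nod2 had log2 fold changes of -0.26 ± 0.46 and 0.0033 ± 0.36 at means of 0.852 and 3.47 CPM.

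Among the cytokines, Tnf (ENSMUSG00000024401, chromosome 17, 35199381 to 35202007, mm10) had the largest fitted difference of all members. It gave 69.2, 113 and 32.9 CPM in S34F against 46.6, 6.36 and 7.19 CPM in WT. All S34F libraries exceeded WT replicates 2 and 3, but WT replicate 1 exceeded S34F replicate 3. The log2 fold change was 1.84 ± 0.84 (SE, n = 3 per group, unadjusted p = 0.0669, adjusted p = 0.263). Without WT replicate 1 it was 3.41 ± 0.54 (adjusted p = 0.0240), and Tnf was then the 1 called member of 41 tested, where 8.51% of all genes were called. That fit compares S34F with the closest pair of libraries, and with that pair summed the log2 fold change was 1.45 (adjusted p = 0.599).

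Il1b, the gene of interleukin-1 beta, had 18.8, 63.3 and 2.81 CPM in S34F and 31.9, 3.53 and 3.84 CPM in WT. The 3 highest libraries were S34F replicate 2, WT replicate 1 and S34F replicate 1, S34F replicate 3 was the lowest of all, and the groups overlapped. The log2 fold change was 1.12 ± 1.2 (adjusted p = 0.628), and -0.26 without S34F replicate 2. Icam1, an adhesion molecule induced by NF-kB, had 31.5, 92.4 and 30 CPM in S34F and 49.3, 28.1 and 27.5 CPM in WT. S34F replicate 2 stood highest, WT replicate 1 came next, and the log2 fold change of 0.56 ± 0.44 (adjusted p = 0.493) became -0.18 without S34F replicate 2.

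**Figure D5:**
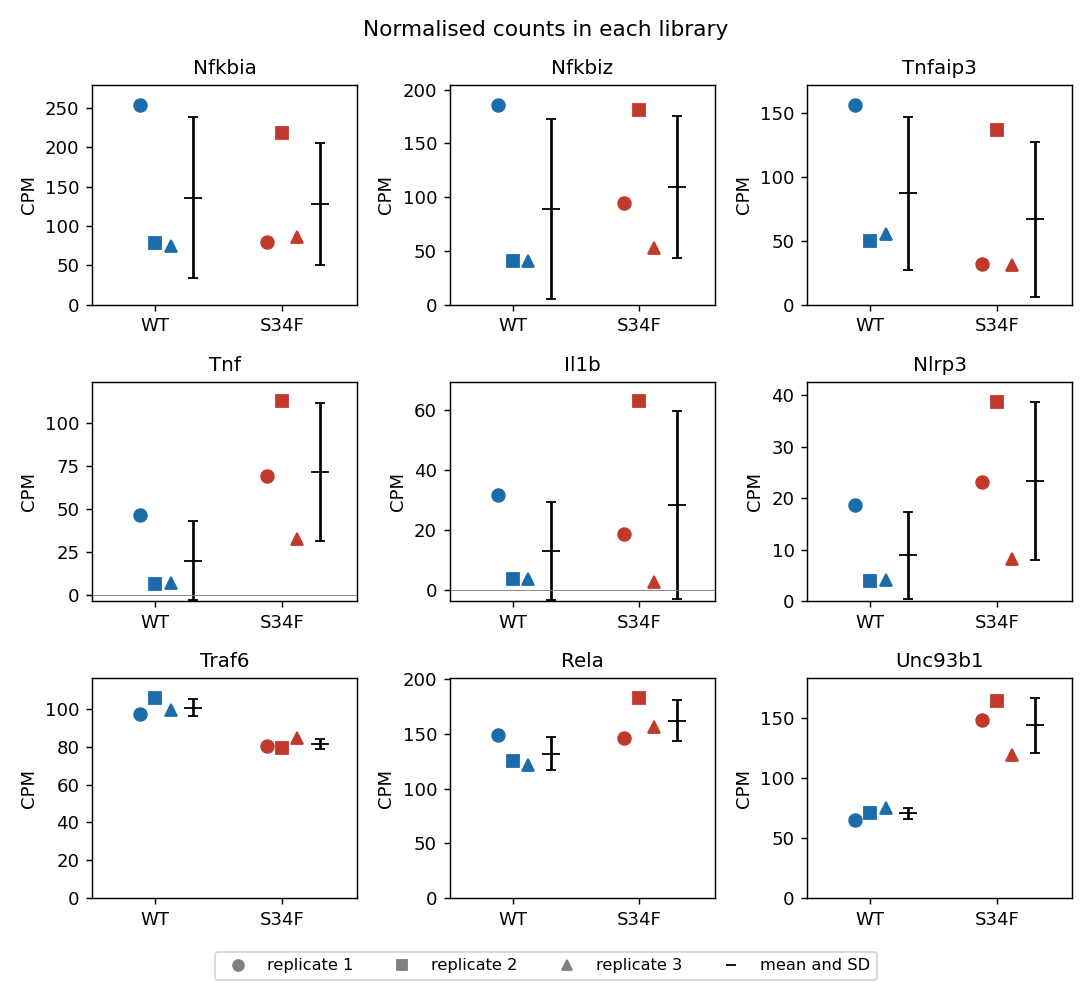
CPM in each library of 8 members and of Unc93b1, a pathway gene outside the members, by genotype, with replicates by symbol and the mean and SD (n = 3) beside them. Nfkbia, Nfkbiz, Tnfaip3 and Il1b have 1 high library in each genotype, Traf6 has narrow groups, and Unc93b1 has all S34F libraries above all WT libraries.

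Without S34F replicate 2 the members as a whole lay lower. Of the 40 tested members 12 then had a positive log2 fold change, with a median of -0.20, beside -0.0058 over all genes, and 10 changed sign. Among these 10 only Tnip1 and Icam1 had lain more than 1 SE from 0 before. Without WT replicate 1 the count of positive values was 26, with a median of 0.08. With the GC trend removed 18 were positive, with a median of -0.02. Then too 10 changed sign, and 0 of those had lain more than 1 SE from 0. In that fit Chuk, Tlr4, Rela and Nfkbib lay nearer 0, at -0.03, -0.07, 0.11 and 0.10. Map3k7 and Ripk2 were at -0.26 and -0.41. Leaving out S34F replicate 2, edgeR called 0 members, and 2.46% of all genes were called. In that fit 8 members had an unadjusted p under 0.05. The share of all genes under that unadjusted level was not computed for it, and was 22% in the main fit. The shares of all genes called in the other fits were 2.13% with RLE factors, 1.79% with upper-quartile factors, 1.7% with library totals alone, 3.12% without a count filter, 2.32% with a minimum of 1 CPM in 3 libraries and 1.2% with the GC trend removed. No member was called in these. With the replicate number as a block 10.5% of all genes and 1 member were called, namely Birc2 (log2 fold change -0.38 ± 0.11, adjusted p = 0.0489). Without S34F replicate 1 or 3, or WT replicate 2 or 3, the shares were 0.145%, 0.362%, 0.138% and 0.16%, and with WT replicates 2 and 3 summed 0.145%, each with 0 members.

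The summed level of some other genes also differed between libraries of a genotype. A list of 13 genes of the early and heat-shock responses, such as Fos, Egr1 and Junb, summed to 764, 961 and 556 CPM in S34F replicates 1 to 3 and to 775, 322 and 344 CPM in WT replicates 1 to 3. Of the 9 tested, 1 rose by edgeR, namely Klf6, where 1.58% of all genes rose. All 9 had a positive log2 fold change, with a median of 0.83. Klf6 and Dusp1 were highest in S34F replicate 3, with 220 and 52.3 CPM, and not in replicate 2. No gene of this list was called with WT replicates 2 and 3 summed, or without any 1 library other than WT replicate 1. Without WT replicate 1, 5 were called, where 8.51% of all genes were. Jun and Atf3 had no count. A list of 12 monocyte and macrophage markers summed to 1156, 1252 and 509 CPM in S34F and to 474, 378 and 369 CPM in WT. Of its 6 tested genes 1 rose by edgeR, the Fc receptor gene Fcgr1, where 1.58% of all genes rose. All 6 log2 fold changes were positive, and 4 of the 12 had no count, among them the complement genes C1qa and C1qb. The Fcgr1 call was absent without S34F replicate 1, without WT replicate 2 or 3, with these 2 summed and with the GC trend removed. In those fits edgeR called 0 of the list. DESeq2 called 3 of the list, where 8.64% of all genes were called. Fcgr1 gave 60.1, 33.6 and 49.2 CPM in S34F, lowest in replicate 2, and the sum of the list was similar in S34F replicates 1 and 2. The sum was led by the lysozyme gene Lyz2, at 803, 856 and 192 CPM in S34F and 222, 107 and 106 CPM in WT. Markers of mature neutrophils summed to between 13.2 and 50.05 CPM, with 0 of 4 tested called, and those of B cells, T cells, mast cells and fibroblasts to between 0.0520 and 3.07 CPM. The part of early response genes and of monocyte markers in the members' values was not tested, and in bulk RNA fewer cells of a type and less RNA per cell cannot be told apart.

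The wider pathway was described by 113 further genes, of which 81 were tested and 1 rose by edgeR, or 1.23%, against 2.18% of all genes. It was Unc93b1 (ENSMUSG00000036908, chromosome 19, 3935186 to 3949340, mm10), the chaperone that carries nucleic acid-sensing Toll-like receptors such as those of Tlr7 and Tlr9 to endosomes. Unc93b1 gave 148, 164 and 119 CPM in S34F against 65.3, 70.6 and 75.1 CPM in WT. Each S34F library was above each WT library. The rise was 2.04-fold, with means of 143.5 ± 22.6 and 70.4 ± 4.92 CPM (SD, n = 3 per group) and a log2 fold change of 1.03 ± 0.14 (SE, edgeR adjusted p = 0.0159). The call was lost without S34F replicate 1 (adjusted p = 0.0735), without WT replicate 2 or 3 (adjusted p = 0.0720 and 0.0659) and with these 2 summed (adjusted p = 0.0686), while the log2 fold change stayed between 0.87 and 1.15 in all alternatives run. Its receptors' genes stayed low, with Tlr7 at 10 counts in all and Tlr9 at 0.299 to 1.75 CPM.

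In the list of NF-kB target genes 18 of 21 tested genes had a positive log2 fold change, with a median of 0.72 beside 0.00052 over all genes, of which 50.1% were positive, and edgeR called 0. At an unadjusted p under 0.05 there were 8 (38.1%), all higher in S34F, where 11.9% of all genes were. DESeq2 called 5 (23.8%; 8.64% of all genes) and limma-voom 0. The 5 were Csf1, Bcl2l1 and the near-identical copies Bcl2a1a, Bcl2a1b and Bcl2a1d. These copies count as separate genes in the shares of this list. The chemokine gene Cxcl2, which recruits neutrophils, had 116, 261 and 53.6 CPM in S34F and 148, 6.72 and 6.54 CPM in WT. The chemokine gene Ccl3 had 123, 340 and 115 CPM in S34F and 93.4, 13.7 and 14.3 CPM in WT. Within each genotype both were highest in S34F replicate 2 and WT replicate 1, and the groups overlapped for Cxcl2 but not for Ccl3. The log2 fold changes were 1.42 ± 1.24 for Cxcl2 and 2.25 ± 0.86 for Ccl3 (SE, adjusted p = 0.548 and 0.196). Without WT replicate 1 they were 4.44 and 3.79 (adjusted p = 0.0256 and 0.0213), in a fit that called 8.51% of all genes. With WT replicates 2 and 3 summed they were 0.90 and 1.85 (adjusted p = 0.843 and 0.525).

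A steadier target was Bcl2a1a, of the antiapoptotic A1 family, with 61.5, 64.4 and 40.5 CPM in S34F and 31.8, 31.2 and 30.3 CPM in WT. All S34F libraries were above the WT libraries, and the log2 fold change was 0.84 ± 0.18 (SE, edgeR adjusted p = 0.0501), the smallest p of this list. Bcl2a1a was called by DESeq2 (adjusted p = 0.00105), without a count filter (0.00055), with the replicate block (0.0091) and with the GC trend removed (0.0447). It was also called without S34F replicate 3 (0.0352) and without WT replicate 1 (0.0428). Bcl2a1a was called in no other alternative run, among them limma-voom, the other scaling factors and WT replicates 2 and 3 summed (0.194). Bcl2a1a, Bcl2a1b and Bcl2a1d are near-identical copies whose reads the counting may have split, so the single values are uncertain. Summed over the copies, the values were 96.4, 107 and 69.3 CPM in S34F and 57.7, 47.2 and 46.3 CPM in WT, again without overlap.

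In the lists of cytoplasmic signalling and the inflammasome the gene with the smallest p missed the threshold by edgeR and passed it by DESeq2. Of 33 tested genes of cytoplasmic signalling edgeR called 0, DESeq2 2 and limma-voom 0, with 7 (21.2%; 22% of all genes) at an unadjusted p under 0.05. DESeq2 called 6.06% of this list and 8.64% of all genes. Card9, an adaptor of fungal sensing that engages NF-kB, had 180, 137 and 181 CPM in S34F and 120, 122 and 117 CPM in WT. The groups did not overlap, and the log2 fold change was 0.47 ± 0.13 (SE, edgeR adjusted p = 0.0925). The adjusted p of Card9 was 0.0329 by DESeq2, 0.0450 without a count filter, 0.0324 with the replicate block and 0.0377 without S34F replicate 2. Card9 was called in no other alternative run, among them limma-voom, the GC trend removed and WT replicates 2 and 3 summed. Of 15 tested inflammasome genes edgeR called 0, DESeq2 1 and limma-voom 0, with 3 (20%) at an unadjusted p under 0.05. Casp1, the protease that matures interleukin-1 beta, had 45.8, 63.0 and 47.4 CPM in S34F and 72.7, 77.1 and 76.4 CPM in WT. All S34F libraries were below the WT libraries, and the log2 fold change was -0.53 ± 0.14 (edgeR adjusted p = 0.0857), opposite in sign to those of Nlrp3 and Il1b. The adjusted p of Casp1 was 0.0223 by DESeq2, 0.0259 without a count filter, 0.0194 with the replicate block and 0.0363 without S34F replicate 2. Casp1 too was called in no other alternative run.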

How the data were processed

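Messenger RNA libraries of 6 samples, 3 S34F and 3 WT, were made with a directional kit, per the labels' protocols. The deposited values are raw counts, 1 whole number for each gene and library. HISAT2, featureCounts and mm10 are named per the submitters' processing notes, and their versions, the strand setting and the annotation release are not given in the sources used. Columns were matched to samples by name, and groups came from the sample titles.

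Counts were tested in edgeR 4.0.16 (R 4.3.3) by the robust quasi-likelihood test, two-sided, after filterByExpr and TMM scaling, on 13444 genes, with Benjamini-Hochberg adjustment over all of them at 0.05 and genotype as the only term (4 residual degrees of freedom). The SE was taken from the ratio of the log2 fold change to the square root of the F statistic. CPM values are TMM-scaled; coordinates, exon lengths and GC content come from GENCODE M21 and promoter windows from RefSeq. The procedure was tested on simulated counts. Alternatives were DESeq2 1.42.0, limma-voom (limma 3.58.1), other scaling factors and count filters, a replicate block, each library left out, and WT replicates 2 and 3 summed. A further alternative removed, before the fit, the trend over GC content of each library's deviation from the gene mean. Figures used matplotlib 3.10.9.

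Members and lists were chosen with earlier results of these data known. Values per library are given for members with an unadjusted p under 0.05, for the tested member of each role with the highest level per exon length or the smallest p, for called pathway genes and for the pathway gene with the smallest p in each list. Nfkbiz, Tnfaip3, Il1b, Icam1, Birc2, Tlr2, Cxcl2 and Ccl3 were added after their values were seen.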

Additional observations from a re-analysis of the deposited data

How the results depend on the processing

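The count of called members was 0 with RLE or upper-quartile factors, library totals, no count filter, a filter of 1 CPM in 3 libraries, DESeq2, limma-voom, WT replicates 2 and 3 summed and the GC trend removed. It lay between 0 and 1 when 1 library was left out. With the replicate number as a block it was 1 (Birc2, log2 fold change -0.38, adjusted p = 0.0489), where 10.5% of all genes were called. Whether the numbers pair the libraries was not settled by these values. Same-numbered libraries deviated together with correlations of 0.320, 0.154 and 0.066. S34F replicate 1 correlated best with the WT library of its own number. S34F replicate 2 did so by a narrow margin, with 0.154 for WT replicate 2 and 0.149 for WT replicate 3. S34F replicate 3 correlated best with WT replicate 2 (0.075), also by a narrow margin. Both margins lie between WT replicates 2 and 3, the closest pair of libraries. Called pathway genes, 1 before, numbered 7 without a count filter, 10 with DESeq2, 10 with the block, 2 with the GC trend removed, 0 with WT replicates 2 and 3 summed and 0 to 12 when 1 library was left out. Over all genes the 293 calls became 763, 1080, 1418, 161 and 20 in the same order, and 19 to 1177. The log2 fold change of Nfkbia turned to 0.0014 with limma-voom and 0.0147 with the block, and that of Nfkbiz to -0.0447 with WT replicates 2 and 3 summed. When 1 library was left out the values lay from -0.71 to 0.74 for Nfkbia, -0.27 to 1.43 for Nfkbiz, -1.46 to 0.35 for Tnfaip3, -0.26 to 2.95 for Il1b, -0.18 to 0.89 for Icam1 and -0.53 to 0.17 for Tlr2. The cause of these changes was not tested. With 3 libraries a genotype, and 6 members too low to test, a difference that was not called is not shown to be absent.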
